A study of Mus musculus with 96 samples.

Results

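The genes of the proteasome subunits were followed in single cells of a mouse lung line, with and without the compound RO-3306. Members were the genes whose symbol is Psma, Psmb, Psmc or Psmd followed by a number, and these were 39 of the 40202 genes listed in each file. Psma genes (8) code for the alpha rings and Psmb genes (11) for the beta rings of the barrel-shaped core. Psmc genes (6) code for the ATPases and Psmd genes (14) for the other subunits of the regulatory cap and a few of its assembly chaperones. The libraries came from C10 cells, which the labels call alveolar type II epithelial, grown in RPMI with serum. Control cells were untreated, and the others received 10 nM RO-3306 for 36 h before they were dispensed singly and turned into full-length cDNA. RO-3306 is known as an inhibitor of CDK1, the kinase that starts mitosis, and the comparison asks how transcripts differed with the compound. It is usually used at micromolar concentrations, so the labelled dose is low, and it could not be checked here. The labels name no separate culture, so each treatment is 1 sample, the cells are not replicates, and no difference below has a test.

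The proteasome degrades proteins that carry ubiquitin chains. The regulatory cap binds the chain, removes it and unfolds the protein, and the core cuts it into peptides inside its closed chamber. Subunit genes are often transcribed together through NFE2L1 (also called NRF1), a membrane-bound factor that is released and activated when proteasome activity is short. Immune cells and cells exposed to interferon swap the catalytic beta subunits for Psmb8, Psmb9 and Psmb10, which changes the peptides offered on MHC class I.

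Of 48 libraries per treatment, only cells passing 50000 counts and 1000 detected genes were used, which were 29 control and 37 RO-3306 cells. Their totals ranged from 59979 to 6457215 counts in control and from 295005 to 5321880 in RO-3306, and summed to 66034079 and 92828839. The median mitochondrial share was 3.40% and 4.42%, and 1 RO-3306 cell, B3, had 56.0%. The defining surfactant genes of alveolar type II cells, Sftpa1, Sftpc and Sftpd, were at 0 in all kept cells, and Sftpb had a count in 1 RO-3306 cell. Of 8 such genes 2 reached a mean of 5 CPM (Abca3 and Lpcat1), and none of 6 epithelial genes did (Krt18 and Cldn4 were at 0). By the calling rule below, Vim, Col1a1 and Col3a1 of 6 mesenchymal genes fell (50%, against 8.51% of all genes) and none rose. The summed level of the 6 genes was 5579 CPM in control (1329 to 11354 over cells) and 2523 CPM in RO-3306 (1263 to 13886). Of 6 macrophage genes, 2 reached a mean of 5 CPM. Of these Cd68 rose by the same rule (50%, against 10.6% of all genes). Lyz2 was at 29.5 and 15.8 CPM (8.85 CPM in control without cell A3), with opposite signs among the sets. Ptprc, Adgre1 and Csf1r were near 0, and the summed level went from 32.2 CPM (0 to 253) to 336 CPM (0 to 860.1). The part of these differences between the groups in the values below was not tested. The titles also carry the letters A to D, whose meaning the labels do not give. The letters divide the kept cells into sets of 10, 8, 6 and 5 control cells and 10, 10, 11 and 6 RO-3306 cells, and values are also given within these sets.

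Proteasome transcripts made up a similar part of all transcripts in both groups. Levels are CPM, counts scaled to a total of 1e6, after summing the counts of a group's kept cells. Summed over all members, control stood at 14581 CPM (95% Poisson interval 14551 to 14610) and RO-3306 at 13919 CPM (13895 to 13943), a ratio of 0.955 (0.952 to 0.957). These intervals cover counting error only, and the reads carry no molecular identifiers, so PCR copies count as reads. Between cells the spread was much wider than this difference. At an equal depth of 639000 reads per cell, the sum was 10639 CPM in the lowest of 25 control cells, 14150 CPM in the median cell and 18454 CPM in the highest. In 34 RO-3306 cells the lowest was 9111, the median 14015 and the highest 17024 CPM. At equal depth the cells of the groups thus lay over each other through nearly their whole range. Cells too shallow for thinning went further. At full depth the sums ran from 9131 to 19911 CPM in 29 control cells. In 37 RO-3306 cells they ran from 3919 (A11) to 17148 CPM, with B3 at 6539 CPM.

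The summed levels of the core and the cap differed in direction. The summed core transcripts (Psma and Psmb) were at 8397 CPM without and 8796 CPM with the compound, a ratio of 1.05 (1.04 to 1.05). The summed transcripts of the cap (Psmc and Psmd) were at 6183 and 5123 CPM, a ratio of 0.829 (0.825 to 0.832). By family, the ratio was 1.07 for Psma (1.06 to 1.07) and 1.03 for Psmb (1.02 to 1.03). It was 0.817 for Psmc (0.812 to 0.822) and 0.837 for Psmd (0.832 to 0.841). Both families of the core were therefore slightly higher with the compound relative to total counts, and both families of the cap were lower. The direction of the core rested on Psma7. Without it the core was at 7207 and 7004 CPM (a ratio of 0.972) and Psma at 3477 and 3181 CPM (0.915). The rise of the Psmb sum, from 3730 to 3824 CPM, was smaller than that of Psmb3 alone, from 666 to 774 CPM. Medians over genes were also just below 0 for Psma (-0.04) and Psmb (-0.02), and the Psmb sum had a log2 ratio of -0.12 when each cell was given the same weight. Psmc and Psmd kept their direction in the sums with TMM factors (log2 ratios of -0.081 and -0.047) and with DESeq2 factors (-0.056 and -0.022), close to 0.

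In single cells at equal depth these family sums overlapped between the groups. Psma sums were 2495, 4358 and 8662 CPM in the lowest, median and highest control cell, and 2890.5, 5237 and 6272 CPM in RO-3306. Psmb sums were 1880, 3582 and 5340 CPM in control and 1923, 3906 and 5602 CPM in RO-3306. The medians of both core families were higher with RO-3306, although the highest Psma sum was that of a control cell, C1. Psmc sums were 1344, 2388 and 3696 CPM in control and 1138, 1887 and 3599 CPM in RO-3306. Psmd sums were 1762, 3255 and 6180.0 CPM in control and 1966, 3009 and 4199 CPM in RO-3306. The medians of both cap families were lower with RO-3306, and 1 control cell too shallow for thinning, C3, had a count in 1 of the 14 Psmd genes.

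**Figure D1:**
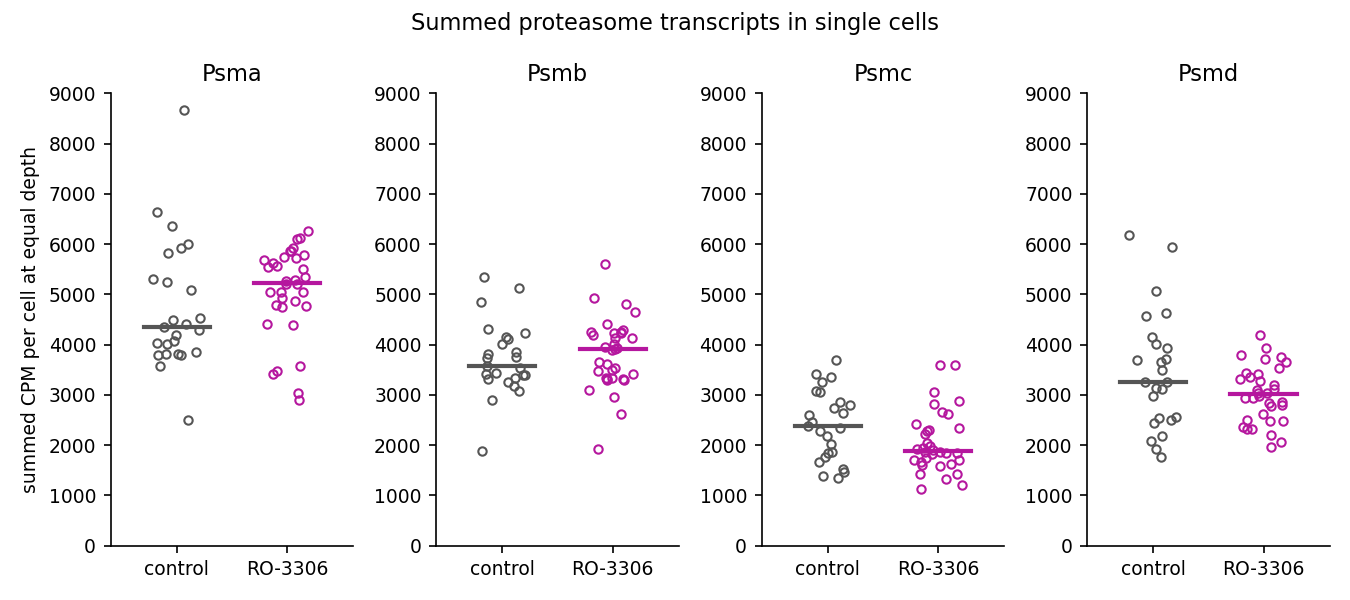
Summed CPM of each subunit family (vertical axis, from 0) in every cell thinned to 639000 reads, 25 control cells (grey) and 34 RO-3306 cells (purple), with the median as a bar. The medians of Psma (4358 and 5237 CPM) and Psmb (3582 and 3906 CPM) are higher in RO-3306 and those of Psmc (2388 and 1887 CPM) and Psmd (3255 and 3009 CPM) lower, with wide overlap in all panels.

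The ratio of core to cap counts within a group does not depend on how libraries are scaled to each other. It was 1.36 in control (exact binomial interval 1.35 to 1.36) and 1.72 in RO-3306 (1.71 to 1.72), a log2 difference of 0.34. In single cells at equal depth it was 0.888 in the lowest, 1.48 in the median and 2.72 in the highest control cell, against 1.18, 1.81 and 2.58 in RO-3306. The median was higher in RO-3306 while the extremes of control lay outside those of RO-3306. Within sets A, B and D the summed ratio was higher in RO-3306, at 1.49 against 1.73, 1.20 against 1.66 and 1.21 against 1.77. In set C the order was the other way, at 1.81 in control and 1.71 in RO-3306. The size of the difference also moved with genes that had shared reads. A count is called fractional where it is not whole within 1e-06, which 1 read shared between sites can cause. Without the 16 members, 11 of them core genes, whose counts were fractional in most of the libraries that had a count, the log2 difference was 0.11, and without Psma7 alone it was 0.23. Leaving out any 1 cell gave 0.27 to 0.36.

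**Figure D2:**
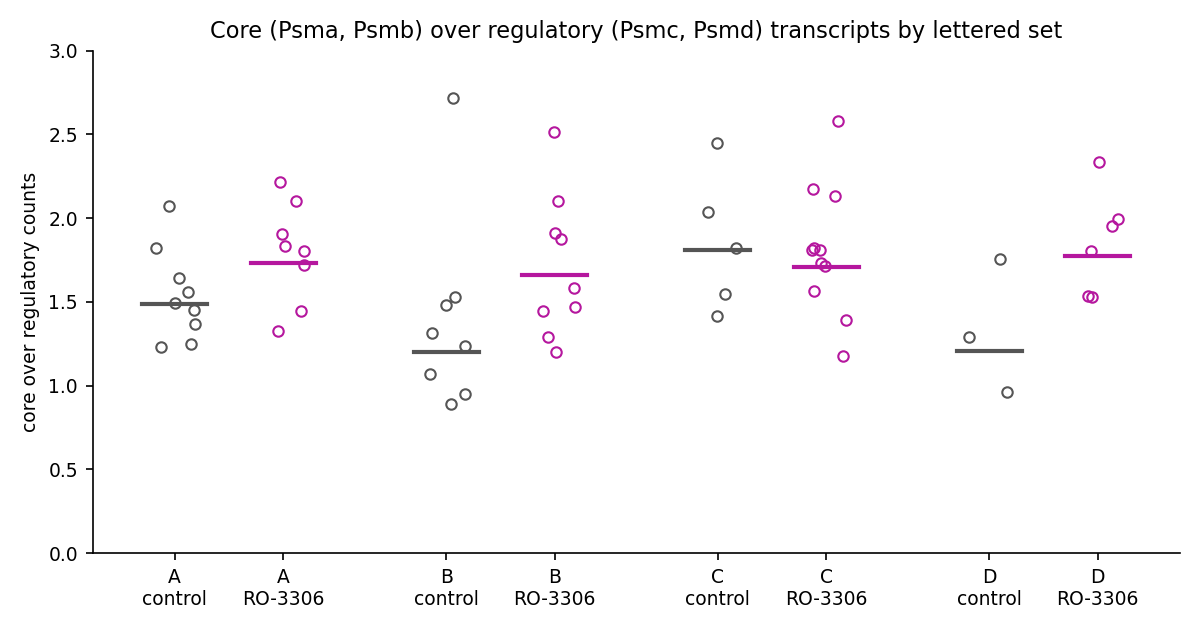
Core (Psma and Psmb) over regulatory (Psmc and Psmd) counts (vertical axis, from 0) in single cells at equal depth, by lettered set and treatment, with the ratio of summed counts of all kept cells as a bar. The bars are higher in RO-3306 in sets A, B and D (1.73, 1.66 and 1.77 against 1.49, 1.20 and 1.21) and lower in set C (1.71 against 1.81).

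Of the 39 members, 36 had counts, and the mean level of each was 5 CPM or more. Genes were called higher or lower where the level differed by at least 1.5-fold with the same sign in all 4 lettered sets. This rule called 2 members higher (Psma7 and Psmd8) and 2 lower (Psma3 and Psmd2). Among all 9374 genes of at least 5 CPM it called 10.6% higher and 8.51% lower, and 2 of 36 members in each direction lies under those shares, a difference that was not tested. By size alone, 4 of 36 members differed by 1.5-fold in either direction, against 56.7% of all genes and 48% of the 5307 genes within the members' range of levels. Psmb9 alone (26.8 CPM) set the lower end of that range, and 35 members reached 50 CPM, so many of the 5307 genes lie lower than nearly all members. The same sign in all 4 sets was found for 6 members (16.7%). This compares with 23.4% of all genes, 28.5% of those within the range and 33.2% of those of at least 50 CPM.

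Over the 36 members, log2 ratios (RO-3306 over control) had a median of -0.18, against -0.22 over all genes of at least 5 CPM. A pseudocount of 1 CPM was added to both levels, which understates the change of low genes. Scaling by TMM or DESeq2 size factors instead of total counts raises log2 ratios by 0.21 or 0.24, so a ratio between -0.24 and 0 can turn positive while a positive ratio stays so. The split of calls over all genes then moves from 55.4% higher to 67.7% or 67.8%, and no member is called lower. Relative to the median of all genes, the Psma median stood 0.18 above and the Psmb median 0.20 above, while Psmc stood 0.11 below and Psmd 0.07 below. Scaling cannot move these distances, but other settings did. With no filter on low values they were -0.02 for Psma, -0.0074 for Psmb, -0.31 for Psmc and -0.28 for Psmd. With a minimum of 50 CPM they were 0.06, 0.09, -0.23 and -0.20, so the cap lay further below all genes in both. Without set B the distance of Psmd was 0.19. The median of all genes in sets A to D was -0.08, -0.26, 0.41 and 0.24. In sets A to D the Psmc median was -0.37, -0.34, -0.28 and -0.31, and it was thus below 0 in every set. The Psmd median was -0.07, -0.58, 0.48 and -0.28, and its sign in set C was the opposite of that elsewhere. The Psma median was 0.06, -0.42, -0.21 and -0.10, and the Psmb median was -0.04, 0.01, -0.18 and 0.15.

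**Figure D3:**
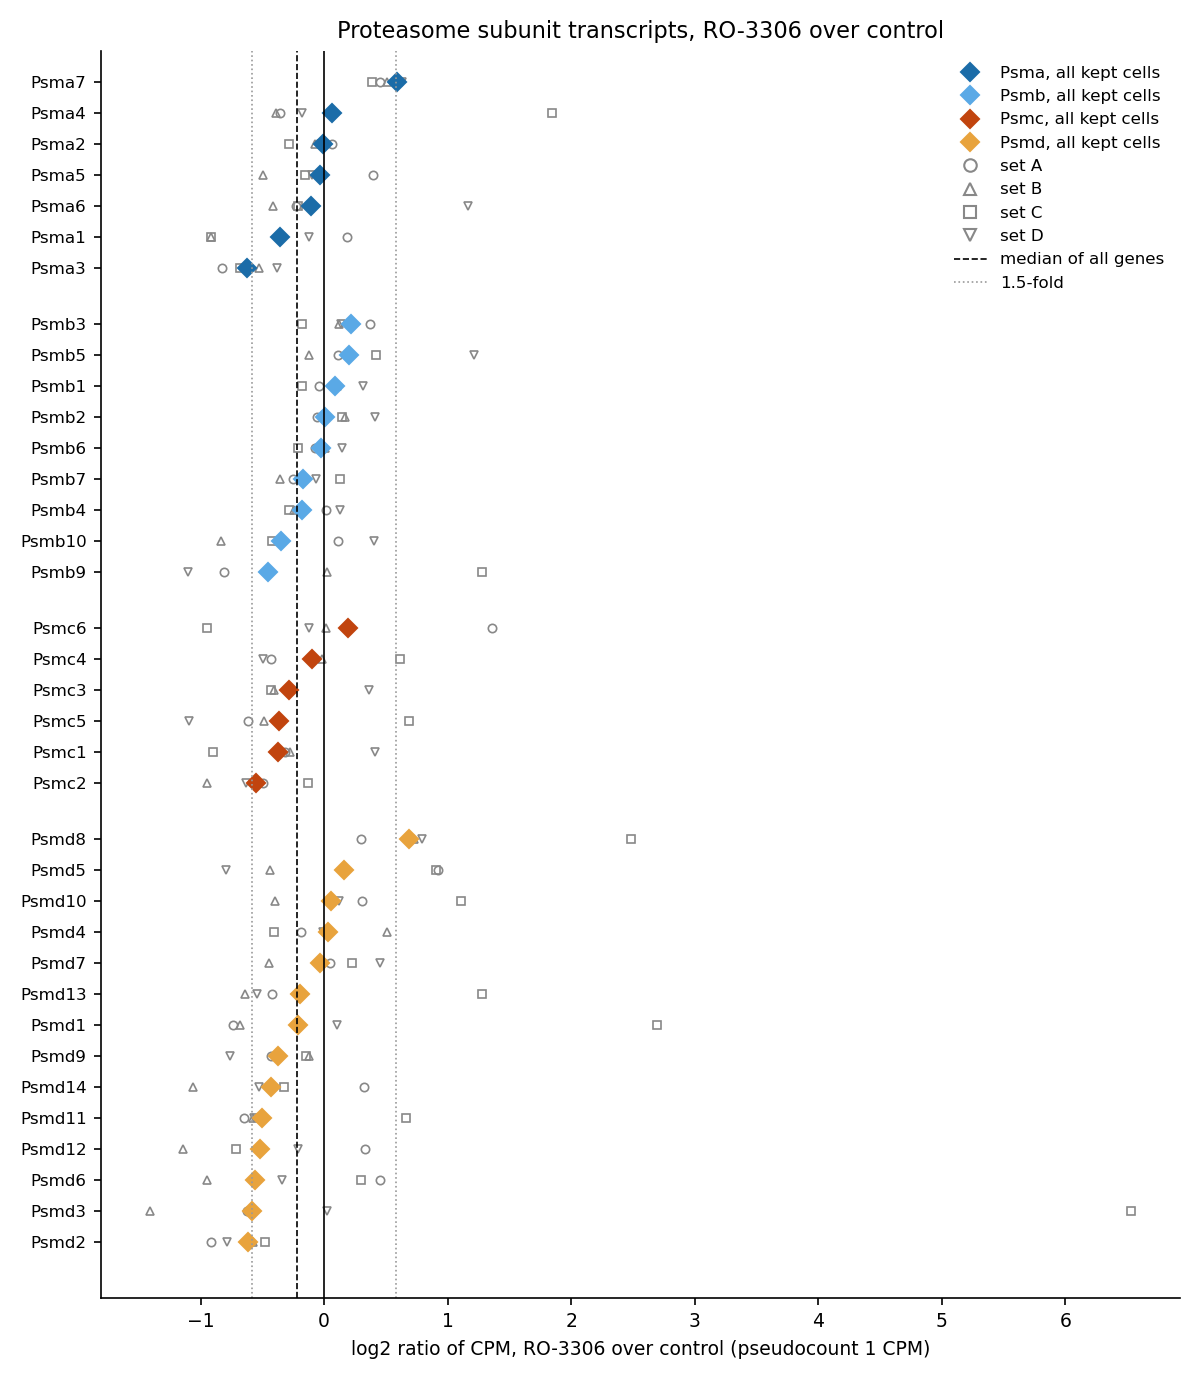
Log2 ratio of CPM, RO-3306 over control, for each of the 36 members with counts (rows, by family), in all kept cells (filled diamonds) and within sets A to D (open symbols). The dashed line is the median of all genes (-0.22), dotted lines mark 1.5-fold, and Psma7 (0.59), Psmd8 (0.69), Psma3 (-0.62) and Psmd2 (-0.62) lie past them with 1 sign in all sets.

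Among the alpha subunits, Psma7 rose and Psma3 fell, and the other 5 with counts differed by less than 1.5-fold. Psma7 (chromosome 2, 179678160 to 179684257 on GRCm39, minus strand) was at 369, 1216 and 2338 CPM in the lowest, median and highest control cell and at 1028, 1788 and 2347 CPM in RO-3306 cells at equal depth. The highest cells were alike, and the lowest control cell was well under the lowest RO-3306 cell. Summed, it rose from 1189.9 CPM (1182 to 1198) in control to 1791 CPM (1783 to 1800.1). The log2 ratio of 0.59 just passes the 1.5-fold line at 0.585. In sets A to D the log2 ratio was 0.45, 0.51, 0.38 and 0.63, so only set D alone passed that line. The call was lost, with ratios of 0.55 to 0.58, without any 1 of 22 of the 66 cells, which were control A1, A2, A5, A7, A8, A11, B4, B5, B6, C3, D7 and D9 and RO-3306 A2, B4, C4, C6, C7, C9, D2, D6, D7 and D12. Psma7 counts were fractional in 56.9% of libraries, so its share of reads from similar sequences is uncertain.

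Psma3 (chromosome 12, 71016057 to 71042651, plus strand) was at 29.7, 305 and 1002 CPM in control cells and at 93.9, 245 and 480.4 CPM in RO-3306 cells. The RO-3306 cells lay wholly within the range of the control cells. Summed, it fell by 0.62 on the log2 scale, from 354 CPM (349 to 358) in control to 229 CPM (226 to 233), and by set the log2 ratio was -0.83, -0.53, -0.68 and -0.38. The call was lost without control A2 (-0.51), control C12 (-0.58) or RO-3306 A5 (-0.58). Its counts were fractional in 66.2% of libraries, and 16.0% of its span lies in other genes. Psma1 was at 656 and 511 CPM, a log2 ratio of -0.36 whose sign in set A (0.19) was the opposite. Psma4 was at 372 and 388 CPM (0.06), with -0.36, -0.39 and -0.18 in sets A, B and D and 1.85 in set C. Psma8, the alpha subunit of the testis, had no count in any of the 96 libraries. For counting error alone, a count of 0 allows a level of at most 0.0454 CPM in the control cells and of 0.0323 CPM in the others. A 0 can also come from the counting, since B2m and G6pdx, which nearly all cells use, were listed at 0 too, and their spans lie wholly within another gene.

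No beta subunit was called in either direction, and the 9 with counts had log2 ratios from -0.45 to 0.22. The 3 constitutive catalytic subunits were close in the groups. Psmb5, which carries the chymotrypsin-like site, was at 0, 84.5 and 485 CPM in the lowest, median and highest control cell and at 0, 112 and 199 CPM in RO-3306 cells. The median was higher in RO-3306 and the highest cell was a control cell. Its summed levels were 99.4 CPM (97.0 to 102) and 115 CPM (112 to 117), a log2 ratio of 0.20. Psmb6, with the caspase-like site, was at 684 CPM (678 to 691) and 674 CPM (669 to 679), a log2 ratio of -0.02. Psmb7, with the trypsin-like site, was at 323 CPM (319 to 328) and 287 CPM (284 to 290.4), a log2 ratio of -0.17. Its counts were fractional in 92.4% of libraries. With DESeq2 factors the ratios were 0.44 for Psmb5, 0.21 for Psmb6 and 0.06 for Psmb7, so the last pair turned sign. Psmb3, a structural subunit, had the highest ratio of the family (666 and 774 CPM, 0.22).

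The immune catalytic subunits were present at low levels, apart from Psmb8. Psmb8 was listed at 0 in all 96 libraries, and none of its span lies in other genes. Psmb9 was at 31.1 CPM (29.8 to 32.5) in control and 22.5 CPM (21.5 to 23.4) in RO-3306. It was detected in 11 of 29 control and 19 of 37 RO-3306 cells. More of the RO-3306 cells thus held a Psmb9 count although the summed level was lower. Its log2 ratio was -0.45, with -0.81, 0.02, 1.28 and -1.10 in sets A to D. Psmb10 was at 74.6 CPM (72.5 to 76.7) and 58.4 CPM (56.9 to 60.0), with a count in 22 of 29 control cells and in all 37 RO-3306 cells. The log2 ratio of Psmb10 was -0.35, with 0.12, -0.83, -0.43 and 0.40 in sets A to D. Control cell B5 alone held 24.8% of the control counts of Psmb10. Without B5 the control level was 60.8 CPM and the log2 ratio -0.06. At equal depth the median cell with the compound was higher for both genes. For Psmb10 it stood at 57.1 against 36.0 CPM, and for Psmb9 at 14.9 against 0 CPM. Together Psmb8, Psmb9 and Psmb10 made up 8.72% of the catalytic counts in control (exact binomial interval 8.52% to 8.91%) and 6.995% in RO-3306 (6.84% to 7.15%). In set C the order was the other way, at 5.998% and 6.14%, with intervals that overlap. Psmb11, the thymus subunit, had no count in any library.

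The 6 ATPases form the ring that unfolds the substrate, and none was called. Of these, 5 were lower in RO-3306 and 1, Psmc6, was higher. Psmc2 had the lowest ratio of the ring. It was at 161, 792 and 1504 CPM in the lowest, median and highest control cell and at 0, 533 and 1667 CPM in RO-3306 cells. The range of the RO-3306 cells took in that of the control cells. Summed, it was at 845 CPM (838 to 852) and 575 CPM (570.2 to 579.9), a log2 ratio of -0.55, with -0.50, -0.95, -0.13 and -0.63 in sets A to D. It was below 0 in all 4 sets and missed the 1.5-fold line. Psmc1 was at 332 and 256 CPM (-0.38), and set D went the other way (0.41). Psmc4 was at 365 and 341 CPM (-0.10), and Psmc6 at 311 and 356 CPM (0.19). The Psmc6 ratio was 1.36 in set A and -0.95 in set C, so its pooled value averages opposite signs.

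Among the non-ATPase subunits, Psmd8 rose and Psmd2 fell. Psmd8, a subunit of the lid (chromosome 7, 28873612 to 28880098, minus strand), was at 0, 97.0 and 619.7 CPM in the lowest, median and highest control cell and at 61.0, 221 and 808 CPM in RO-3306 cells. All 34 RO-3306 cells at equal depth had a count, against 20 of 25 control cells. Summed, it rose by 0.69 on the log2 scale, from 152 CPM (149 to 155) in control to 246 CPM (243 to 249), with 0.30, 0.73, 2.48 and 0.79 in sets A to D. The call was lost without control B5 (0.58), and without set C the ratio was 0.47. Without set A it was 1.04. In set C, Psmd8 was detected in 2 of 6 control cells and in all 11 RO-3306 cells. Psmd8 counts were fractional in 55.9% of libraries.

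Psmd2 (chromosome 16, 20469872 to 20482164, plus strand), the large base subunit that docks ubiquitin-carrying factors, was at 0, 377 and 1164 CPM in control cells and at 0, 166 and 1391 CPM in RO-3306 cells. The medians differed while the lowest cells were alike and the highest was an RO-3306 cell. Summed, it fell by 0.62 on the log2 scale, from 434 CPM (429 to 439) in control to 283 CPM (279 to 286), and by set the log2 ratio was -0.91, -0.57, -0.48 and -0.78. The call was lost without any 1 of 10 cells. Without control A7, B2, B5 or D9 the ratio was -0.55, -0.56, -0.47 or -0.58. Without RO-3306 A5, B11, B12, C4, D2 or D6 it was between -0.58 and -0.55. Its counts were fractional in 45.0% of libraries. Psmd2 was the called member with the lowest share of fractional counts, and the only 1 of the 4 whose counts were whole in most libraries.

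Other members of the cap differed less evenly over the sets. Psmd3 was at 169 CPM (166 to 172) and 112 CPM (110.2 to 115), a log2 ratio of -0.58, with -0.62, -1.41 and 0.02 in sets A, B and D. In set C all 6 control cells were at 0 while 10 of 11 RO-3306 cells were not, so the pseudocount sets the value there (6.53), and its sign was opposite to that of the pooled cells. Control cell B5 held 16.8% of the control counts. Psmd14, the deubiquitinase of the lid, was at 494 CPM (489 to 499) and 367 CPM (363 to 371), a log2 ratio of -0.43, with 0.32 in set A and negative values in the others. Psmd4, a ubiquitin receptor, was at 213 and 217 CPM (0.03). The assembly chaperones of the ATPase ring, Psmd5, Psmd9 and Psmd10, had summed levels of 503 and 502 CPM. Psmd9 was at 137 and 105 CPM (-0.37) and was lower in all 4 sets. Psmd5 was at 199 and 222 CPM (0.16) and Psmd10 at 167 and 174 CPM (0.06), and both changed sign between sets. Psmd10 also has 34.6% of its span in other genes.

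The bases before the start of the 4 called members are printed because these are the only members that the rule called. Promoter windows came from RefSeq on GRCm38.p6, an older build than that of the counts, and 34 windows matched 32 of the 39 members. Capitals mark the GC box GGGCGG and the CCAAT box CCAAT, searched on both strands, and each line gives the 150 bases before the annotated start, 5′ to 3′ along the gene.
Psma7 (chr2:180042465-180042614, minus strand): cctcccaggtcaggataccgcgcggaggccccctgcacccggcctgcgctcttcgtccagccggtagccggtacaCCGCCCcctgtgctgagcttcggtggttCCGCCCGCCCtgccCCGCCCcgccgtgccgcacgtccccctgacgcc
Psmd8 (chr7:29180674-29180823, minus strand): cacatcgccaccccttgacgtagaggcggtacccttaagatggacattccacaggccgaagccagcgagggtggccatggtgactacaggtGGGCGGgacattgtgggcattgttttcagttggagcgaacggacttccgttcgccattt
Psma3 (chr12:70974473-70974622, plus strand): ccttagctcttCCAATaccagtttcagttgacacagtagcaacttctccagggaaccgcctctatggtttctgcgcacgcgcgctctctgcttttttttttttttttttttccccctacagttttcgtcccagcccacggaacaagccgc
Psmd2 (chr16:20651502-20651651, plus strand): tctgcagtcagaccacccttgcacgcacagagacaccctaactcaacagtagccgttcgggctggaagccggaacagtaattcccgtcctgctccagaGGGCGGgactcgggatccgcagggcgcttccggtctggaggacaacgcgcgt

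Psma7 has 4 GC boxes in this stretch, of which 2 overlap, Psmd8 and Psmd2 have 1 each, and Psma3 has a CCAAT box and no GC box. For 31 of the 34 windows the last 30 bases lay in a GENCODE transcript of the gene. Those of Psma4, Psma7 and Psmc5 did not, so the start used for Psma7 is uncertain. Over the full 250 bases before the start, a GC box was in 52.9% of member windows and 32.7% of all 32851 windows, and a CCAAT box in 38.2% and 33.8%. Psma7 and Psmd8, which rose, and Psmd2, which fell, thus all have a GC box in this stretch. A match is a description of letters and not evidence of binding.

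The core of the antioxidant response element, TGACNNNGC, is the sequence through which NFE2L1 and the related NFE2L2 (NRF2) are known to act. On either strand it was in 5 member windows (14.7%), against 10.2% of all windows. These belonged to Psmb5, Psmb6, Psmc6, Psmd9 and Psmd12, starting 47, 9, 227, 31 and 247 bases before the gene's start. The 3 that lie nearest to the start are printed with the match in capitals.
Psmb5 (chr14:54617996-54618145, minus strand): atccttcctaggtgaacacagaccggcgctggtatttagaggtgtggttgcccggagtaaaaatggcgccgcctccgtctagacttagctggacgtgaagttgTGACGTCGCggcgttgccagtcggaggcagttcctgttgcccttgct
Psmb6 (chr11:70525207-70525356, plus strand): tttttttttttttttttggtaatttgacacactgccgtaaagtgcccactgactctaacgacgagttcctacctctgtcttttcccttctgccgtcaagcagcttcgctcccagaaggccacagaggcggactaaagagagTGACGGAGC
Psmd9 (chr5:123228040-123228189, plus strand): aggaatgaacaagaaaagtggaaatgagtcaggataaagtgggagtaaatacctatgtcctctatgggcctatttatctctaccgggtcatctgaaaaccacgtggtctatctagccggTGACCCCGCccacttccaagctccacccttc

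The log2 ratios of these 5 genes were 0.20 for Psmb5, -0.02 for Psmb6, 0.19 for Psmc6, -0.37 for Psmd9 and -0.52 for Psmd12. They were thus spread over both signs, and none was called.

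To compare genes with each other, levels were divided by mRNA length. The length is that of 1 transcript per gene while counts cover whole gene spans, so the order also depends on the transcript chosen. In control, Psma2 was at 1194 CPM beside 1190 CPM for Psma7, but at 410 CPM per kb with a length of 2911 nt against 914 nt. In control, Psma7 was highest at 1302 CPM per kb, followed by Psmb3 (869.8), Psmb6 (858), Psmb2 (679) and Psmb1 (606). In RO-3306 the same 5 led in the same order, at 1960.0, 1009.9, 844, 683 and 643 CPM per kb. Psmb3 and Psmb6, neighbours in control, stood further apart in RO-3306. Psmb9 was lowest in both groups, at 23.0 and 16.6 CPM per kb, and Psmb10 was among the 5 lowest. Of the called members, Psmd8 went from rank 29 to rank 21, Psma3 from 24 to 29 and Psmd2 from 22 to 26 of 36. Over the 36 members Spearman's correlation between the groups was 0.969. This is a description over genes that share libraries.

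**Figure D4:**
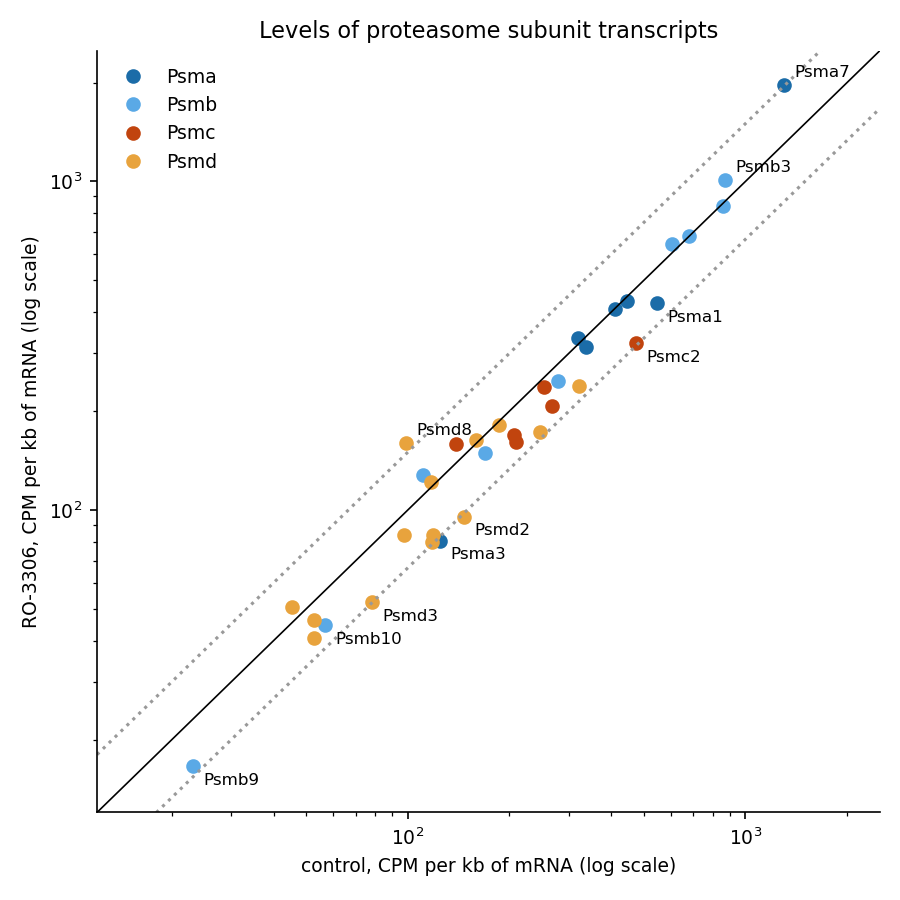
Level of each of the 36 members in control (horizontal) and RO-3306 (vertical), in CPM per kb of mRNA, both on log scales, with the line of equality and dotted lines at 1.5-fold. Psma7 is highest (1302 and 1960.0 CPM per kb) and Psmb9 lowest (23.0 and 16.6), and most points lie between the dotted lines.

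Core and cap genes also differ in mRNA length, and ratios moved with length. Over the 36 members, Spearman's correlation of the log2 ratio with mRNA length was -0.40, and over 9115 genes of at least 5 CPM with a known length it was -0.36. The 18 members with the shorter mRNAs (from 766 nt) had a median log2 ratio of -0.07, and 13 of them were core genes. The 18 with the longer mRNAs (up to 4397 nt) had a median of -0.33, and 3 of them were core genes. After subtracting the median ratio of genes of like length, the family medians were -0.19 for Psma, -0.30 for Psmb, -0.44 for Psmc and -0.23 for Psmd. Psmb then lay below Psmd, Psma7 (0.31) and Psmd8 (0.51) were not called, and Psmc2 (-0.63) was the only member called, as lower.

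Over cells of a group, the family sums at equal depth moved together only loosely. Between the core and the cap, Pearson's r was 0.26 and Spearman's rho 0.26 over 25 control cells, and 0.28 and 0.14 over 34 RO-3306 cells. The highest pair in control was Psmc with Psmd (rho 0.50), and in RO-3306 it was Psmb with Psmc (rho 0.40). These points share library depth and scaling. The number of members with a count was 22 to 36 in control cells (median 34) and 18 to 36 in RO-3306 cells (median 35).

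Other proteasome genes were compared as a list of 24 with a mean of at least 5 CPM, covering activators, assembly factors and shuttles that bring in substrates. Their median log2 ratio was -0.01, with 2 called higher (8.33%) and 1 lower (4.17%), under the 10.6% and 8.51% of all genes. Psme2, a subunit of the interferon-induced PA28 activator, rose from 328 to 511 CPM (0.64), with 0.23, 0.77, 1.37 and 0.90 in sets A to D. The call was lost without RO-3306 cell C5 (0.58). It was also lost after subtracting the ratio of genes of like length, where Zfand2a and Ecpas were the only genes of this list called. Its partner Psme1 was at 118 and 131 CPM (0.16). Zfand2a, a stress-induced proteasome-binding protein, rose from 9.87 to 15.7 CPM (0.62). Control cell A3 held 57.3% of its control counts, and without A3 the control level was 4.61 CPM and the ratio 1.58. The Zfand2a call was lost without any 1 of 18 other cells, down to 0.37 without RO-3306 A9. Ecpas, a scaffold that binds the proteasome, fell from 108 to 19.4 CPM (-2.41), and was lower in all 4 sets. Without control D9 the sign in set D turned and the call was lost. Sem1, the small lid subunit that the naming rule leaves out, was at 724 and 1055 CPM (0.54), higher in all 4 sets but under 1.5-fold. Pomp, the maturation factor of the core, was at 587 and 659.8 CPM (0.17).

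The NFE2L1 pathway list holds this factor, its processing enzymes and its partners, and also Nfe2l2 (NRF2) and Keap1. It had 12 genes of at least 5 CPM. Of these 4 fell (33.3%, against 8.51% of all genes) and none rose, and the median log2 ratio was -0.58. Their mRNAs are long, with a median of 3390 nt against 2897 nt over all genes, and after subtracting the ratio of genes of like length the median was -0.05, with Nfe2l1 and Nploc4 called lower. Nfe2l1 fell from 187 to 80.1 CPM (-1.21), with -0.54, -1.07, -2.70 and -0.76 in sets A to D. Its call was lost without control A1 or control C3, and without C3, which held 32.2% of the control counts, the ratio was -0.67. Vcp, the ATPase that extracts the factor from the membrane, fell from 485 to 243 CPM (-0.99), and its cofactor Nploc4 from 109 to 41.0 CPM (-1.38). The Nploc4 call was lost without control B4, C7 or D7. The partner Mafg fell from 102 to 66.7 CPM (-0.61), a call lost without any 1 of 10 cells (-0.35 without control B1). The lowest ratio was that of Ngly1 (37.3 and 4.06 CPM, -2.92), which was higher in set D, and the highest that of Ufd1 (136 and 203 CPM, 0.58), which was lower in set C. The members stood at a median of -0.18 beside -0.58 for this list. After subtracting the ratio of genes of like length they stood at -0.27 beside -0.05, so the order was the other way.

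The list of NRF2 targets had a median of 1.03 over 9 genes, all higher in the sums, of which Hmox1, Srxn1 and Gsr were called (33.3%, against 10.6% of all genes). Hmox1, which degrades heme, rose from 22.4 to 125 CPM (2.43), Srxn1 from 108 to 257 CPM (1.24) and Gsr from 91.4 to 188 CPM (1.03). The Srxn1 call was lost without any 1 of 9 cells and the Gsr call without any 1 of 3, with ratios of at least 0.92 throughout. Slc7a11 had the lowest ratio (44.1 and 47.1 CPM, 0.10). After subtracting the ratio of genes of like length the list median was 1.49, and Hmox1, Txnrd1 and Srxn1 were called higher but not Gsr. The list of interferon and MHC class I loading genes had a median of 0.67 over 9 genes, with 1.28, 0.30, 3.55 and -0.04 in sets A to D. After subtracting the ratio of genes of like length the median was 0.84. Of the 9 genes, 1 had the same sign in all 4 sets and was called higher (11.1%, against 10.6% of all genes). It was Tap1, the peptide transporter (a log2 ratio of 0.70). Tap1 had a count in 3 of 29 control and 14 of 37 RO-3306 cells. Control B4 held 49.4% of its control counts, and without B4 the level was 6.34 instead of 11.3 CPM and the ratio 1.45. The Tap1 call was lost without any 1 of 9 other cells. H2-D1 had its highest ratio (1.14) and Stat2 its lowest (-0.95), and neither kept its sign over the sets. Without control C3 the H2-D1 ratio was 2.23, and the Stat2 ratio was 0.54 without control B4 and -2.12 without RO-3306 D12. Psmb8, Psmb9 and Psmb10, which belong with these genes in function, were at 0 or lower in the sums. Psmb9 and Psmb10 were each higher in 2 sets and lower in 2, and their median cells at equal depth were higher in RO-3306. In the list of 6 ubiquitin and E1 genes the median was -0.17, with 1 called lower (16.7%, against 8.51% of all genes). Uba6, an enzyme that activates ubiquitin, fell from 77.0 to 2.53 CPM (-4.47). RO-3306 cell B12 held 79.3% of the RO-3306 counts of Uba6, and without B12 the level was 0.538 CPM and the ratio -5.66. Without control D8 the Uba6 call was lost. After subtracting the ratio of genes of like length the list median was -0.37. Rps27a, Uba1 and Uba6 were then called lower (3 of 6, against 7.61% of all genes). Ubb was at 1988 and 2899 CPM (0.54), higher in all 4 sets. Ubb counts were fractional in all libraries that had any.

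**Figure D5:**
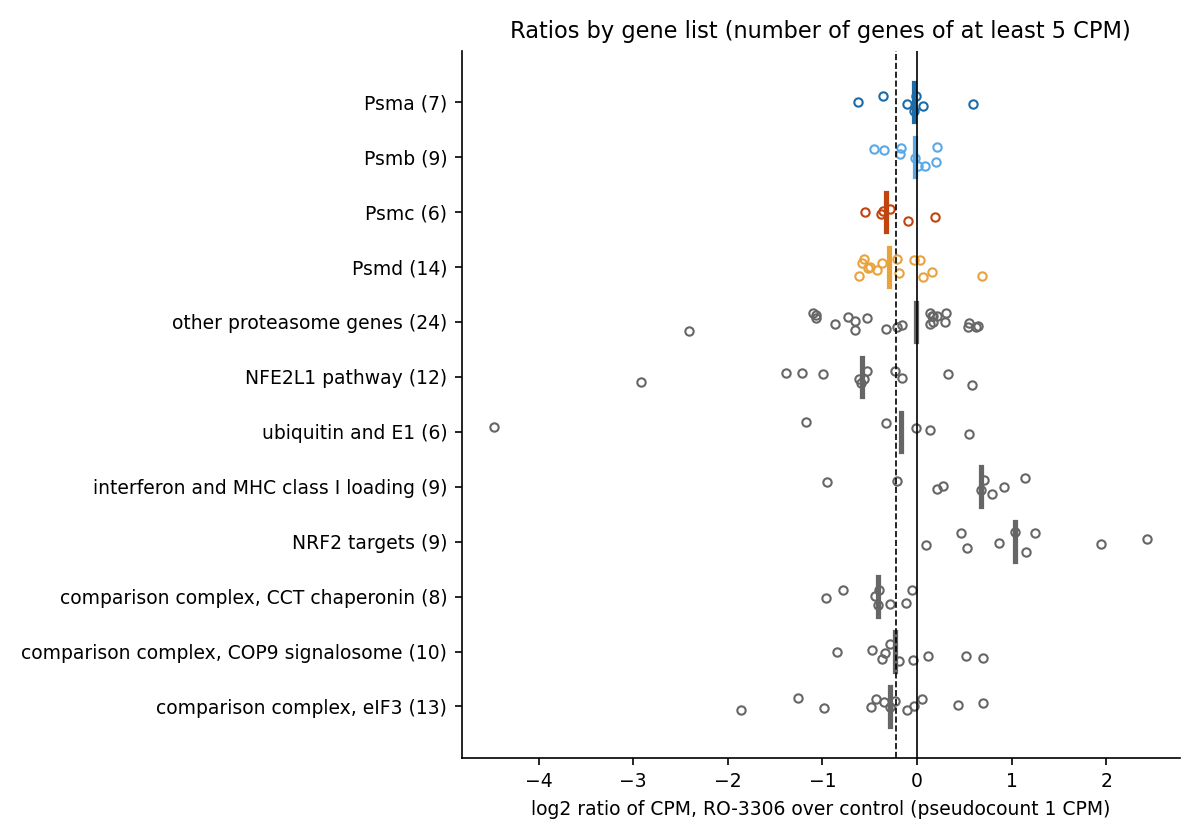
Log2 ratio of CPM, RO-3306 over control, of each gene (open points) in the 4 subunit families and 8 other lists, with the list median as a bar and the median of all genes (-0.22) as a dashed line. The subunit families lie close to the dashed line, the NFE2L1 pathway (-0.58) lies below it, and the NRF2 targets (1.03) lie above it. Ratios shown are not adjusted for mRNA length. After subtracting the ratio of genes of like length the median of the NFE2L1 pathway was -0.05.

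Other complexes made of many subunits gave values for scale. The median log2 ratio was -0.41 over 8 genes of the CCT chaperonin, -0.24 over 10 of the COP9 signalosome and -0.29 over 13 of the translation factor eIF3. In the chaperonin Cct3 (-0.96) and Cct6a (-0.78) fell (25%, against 8.51% of all genes), and Tcp1 had the highest ratio (-0.05). In the signalosome Cops9 (0.70) rose (10%, against 10.6% of all genes), and Cops2 had the lowest ratio (-0.85). In eIF3 Eif3a (-1.86), Eif3b (-1.26) and Eif3j1 (-0.98) fell (23.1%, against 8.51% of all genes). The Eif3b call was lost without any 1 of 3 cells, and Eif3f had the highest ratio (0.70). The median of all proteasome members (-0.18) was nearer to 0 than these 3. After subtracting the ratio of genes of like length the order changed, with -0.27 for the members, -0.23 for the chaperonin, -0.14 for the signalosome and -0.27 for eIF3. Before that step the cap families (-0.33 and -0.29) were within their range. After it, Cct3, Cct6a, Eif3a, Eif3b and Eif3e were called lower, and Cops7b was called higher, but Cops9 and Eif3j1 were not called. Over all genes 10% were then called higher and 7.61% lower. Over 8 housekeeping genes the median was 0.11, and 2 of these fell (25%, against 8.51% of all genes). They were Actb (-0.70) and Ywhaz (-0.59, lost without any 1 of 26 cells). After subtracting the ratio of genes of like length, the housekeeping genes called were Actb and Tbp. The COP9 signalosome and eIF3 share an architecture with the proteasome lid.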

How the data were processed

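Each library holds the RNA of 1 cell. The deposited files give expected counts for each gene. Per the file headers, they were produced by featureCounts 2.0.3 over whole gene spans of the GRCm39 RefSeq annotation. Multi-mapping reads were shared out in fractions, per the file headers, so counts need not be whole. STAR is named in the submitters' processing notes with no version or settings, and trimming is not given in the sources used here.

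From these, counts of kept cells were summed per treatment, scaled to CPM and compared as log2 ratios with a pseudocount of 1 CPM. Genes of a mean of at least 5 CPM entered medians and calls, and a call needed 1.5-fold and 1 sign in all 4 lettered sets. Intervals are exact, at 95%, for counting error only. Cells were thinned to 639000 reads, percentile 10 of kept totals rounded down to a multiple of 1000, which leaves out 4 control and 3 RO-3306 cells. Depth is given in the report. The self-test ran on simulated cells. No 2 kept libraries were identical, and no doublet caller was run on cells dispensed singly. mRNA lengths (for 97.2% of genes) came from GENCODE M21 by symbol, as the longest principal transcript.

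The members and gene lists were chosen with earlier results of these data known. Full values were given for the 2 highest and 2 lowest ratios of each family, the catalytic, immune and tissue-specific subunits, Psmd2, Psmd4, Psmd14 and the assembly chaperones, and in each other list for the highest, the lowest and any called gene. Psme1, Sem1, Pomp and Ubb were named after their values were seen, as were the core to cap ratio and the omission of single cells. As alternatives, libraries were scaled with edgeR's TMM factors (version 4.0.16) or the size factors of DESeq2 (version 1.42.0) under R 4.3.3, and no test was run. Other steps used Python 3.11.15, numpy 2.4.6, pandas 2.3.3 and scipy 1.17.1.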

Additional observations from a re-analysis of the deposited data

Results flagged for a closer look

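The libraries left out for too few counts or genes also held proteasome reads. Over the 11 RO-3306 libraries left out, the members summed to 3142.8 CPM (3042 to 3247), from 10 libraries with a member count. Over the 19 control libraries left out they summed to 873 CPM (777 to 978), from 12 libraries. This was taken up because the level in data outside the comparisons was above that in the control libraries. RO-3306 library D5, with 87.3% mitochondrial counts, held 773537 of the 1162603 counts of these RO-3306 libraries. It held 1439 of the 3654 member counts, and without it the level was 5693 CPM. Control library C10 held 130 of the 298 control member counts, and without it the control level was 517 CPM. Both pooled values are well below those of the kept cells (14581 and 13919 CPM), but single RO-3306 libraries differed widely. D11 held 651.5 member counts among only 3114 counts, a share far above that of the kept cells, and D10 held 631 among 63235. D1 (34.5 among 2320) and B8 (246.5 among 19068) were near the level of the kept cells.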

How the results depend on the processing

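No paired analysis was possible because the result comes from no test and the labels do not say that a title number ties a control to an RO-3306 cell. Medians of log2 ratios below are for all members, Psma, Psmb, Psmc and Psmd in that order, with -0.18, -0.04, -0.02, -0.33 and -0.29 as reported, and the number of members called was 2 higher and 2 lower. With TMM factors the medians were 0.032, 0.17, 0.19, -0.12 and -0.083, and with DESeq2 factors 0.057, 0.20, 0.21, -0.092 and -0.058, so the sign for all members turned, and 0 members were called lower in both. With the total of nuclear-coded counts they were -0.15, -0.011, 0.0017, -0.30 and -0.27. With cells thinned before summing they were -0.14, -0.077, 0.0066, -0.28 and -0.27 (1 called higher, 2 lower), and with cells weighted equally -0.19, 0.038, -0.17, -0.34 and -0.185 (1 higher, 0 lower). Subtracting the median of genes of like length gave -0.27, -0.19, -0.30, -0.44 and -0.23 (0 higher, 1 lower). Leaving out members fractional in most libraries gave -0.35, -0.36, -0.26, -0.29 and -0.40 (0 higher, 1 lower). Without set A they were -0.20, -0.16, 0.00078, -0.33 and -0.27 (2 higher, 5 lower), without set B -0.045, 0.14, -0.051, -0.27 and 0.019 (1 higher, 2 lower), without set C -0.24, -0.13, 0.016, -0.27 and -0.42 (1 higher, 3 lower), and without set D -0.20, -0.04, -0.066, -0.30 and -0.26 (1 higher, 2 lower). The 5 lower calls without set A were Psma1, Psmc2, Psmd2, Psmd12 and Psmd14. Leaving out a set loosens the sign rule, and more of all genes were then called. Over all genes, 14.9% were called higher and 12.7% lower without set A, and 15.2% and 10.8% without set B. Without set C it was 13.2% and 15.1%, and without set D 13.4% and 14%. With TMM factors it was 13.9% and 6.61%, with DESeq2 factors 13.9% and 6.6%, and with like length subtracted 10% and 7.61%. For all members, the stricter cell filter gave -0.17, the mitochondrial limit -0.17 and a mean of at least 50 CPM -0.17, with -0.0076 for Psmb. The cause of these shifts was not tested.

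Of the settings chosen after seeing the data, the log2 difference in the core to cap ratio (0.34) was 0.28 with thinned cells, 0.23 with cells weighted equally, 0.40, 0.22, 0.40 and 0.30 without sets A to D, 0.23 without Psma7, and 0.11 without the members fractional in most libraries. Leaving out 1 cell at a time gave -0.21 to -0.10 for all members, -0.11 to 0.045 for Psma, -0.062 to 0.0082 for Psmb, -0.40 to -0.25 for Psmc, -0.36 to -0.22 for Psmd and 0.27 to 0.36 for the core to cap ratio, with 0 to 2 members called higher and 0 to 3 lower. Over the 16 alternatives in which each could be called, leaving aside single cells, Psmd8 was called in 14, Psmd2 in 12, and Psma3 and Psma7 in 11 each. The Psmc median was below 0 in every setting run.

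With 1 sample per treatment, counting intervals are far narrower than the spread between cells, and neither shows how another culture would vary. Depth does not limit the summed levels of the 36 members with counts. For the 3 at 0 the stated bounds cover counting error only, and Psmb9 had a count in 11 of 29 control and 19 of 37 RO-3306 cells.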
